A study of Mus musculus with 10 samples.

Results

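Fasn, Scd1, Elovl6, Elovl5, Acly, Acaca, Dgat2, Srebf1 and Mgst1 are the fatty acid synthesis and sebaceous lipid genes described here in mouse ear skin. They were chosen by gene symbol, and all 9 were found among the 9779 genes that both deposited tables of log2 values hold. The mice were c57/Bl6, 6 to 8 weeks old, and made up 3 groups. The DMSO group (n = 4) was given imiquimod on the skin plus the solvent DMSO; imiquimod activates a Toll-like receptor and provokes psoriasis-like inflammation. The benzamil group (n = 4) was given imiquimod plus benzamil, a blocker of the epithelial sodium channel related to amiloride. The third group (n = 2) had no treatment, so imiquimod is shared by both treated groups and absent only there. Treatment lasted 6 days. The design text of the series places the untreated control on back skin while its sample labels say ear skin, so untreated status and body site cannot be told apart in any comparison with that group. Whether the libraries of a group come from separate animals is not stated, and the p-values therefore reflect only how these samples vary, which can be technical variation.

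De novo lipogenesis turns cytosolic citrate into fatty acids. ATP citrate lyase makes acetyl-CoA, acetyl-CoA carboxylase makes malonyl-CoA, fatty acid synthase builds palmitate, and elongases and desaturases then lengthen the chain and add double bonds, before acyltransferases such as DGAT2 store the products as triglyceride. The transcription factor SREBP-1, encoded by Srebf1, is a known activator of most of these genes. In skin the pathway runs in sebaceous gland cells, which fill with lipid and release it as sebum, in keratinocytes, which build the lipid barrier, and in dermal fat.

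Reads per library over the joined genes were few, from 259262 to 935714 in the DMSO group, from 138440 to 375455 with benzamil, and 74614 and 71144 without treatment. Levels below are CPM, read counts scaled to a common effective library size, and 1 read was worth from 1.04 CPM in DMSO library 1 to 14.8 CPM in untreated library 2. These are 3' libraries, which give about 1 fragment per transcript whatever its length, and no level is compared between genes here. Ribosomal RNA took 22.1% to 28.8% of the reads with DMSO, 31.0% to 45.7% with benzamil, and 34.2% and 38.6% in untreated skin. That share sums the mitochondrial genes mt-Rnr1 and mt-Rnr2 with Rn18s-rs5. All 12 listed keratinocyte markers were in both tables. Differences are log2 fold changes ± an approximate standard error, tested with edgeR's quasi-likelihood method, and a gene is called where its adjusted p (Benjamini-Hochberg, over the 5245 genes tested) is under 0.05. Acaca and Srebf1 had too few reads to enter that test, which left 7 members.

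**Figure D1:**
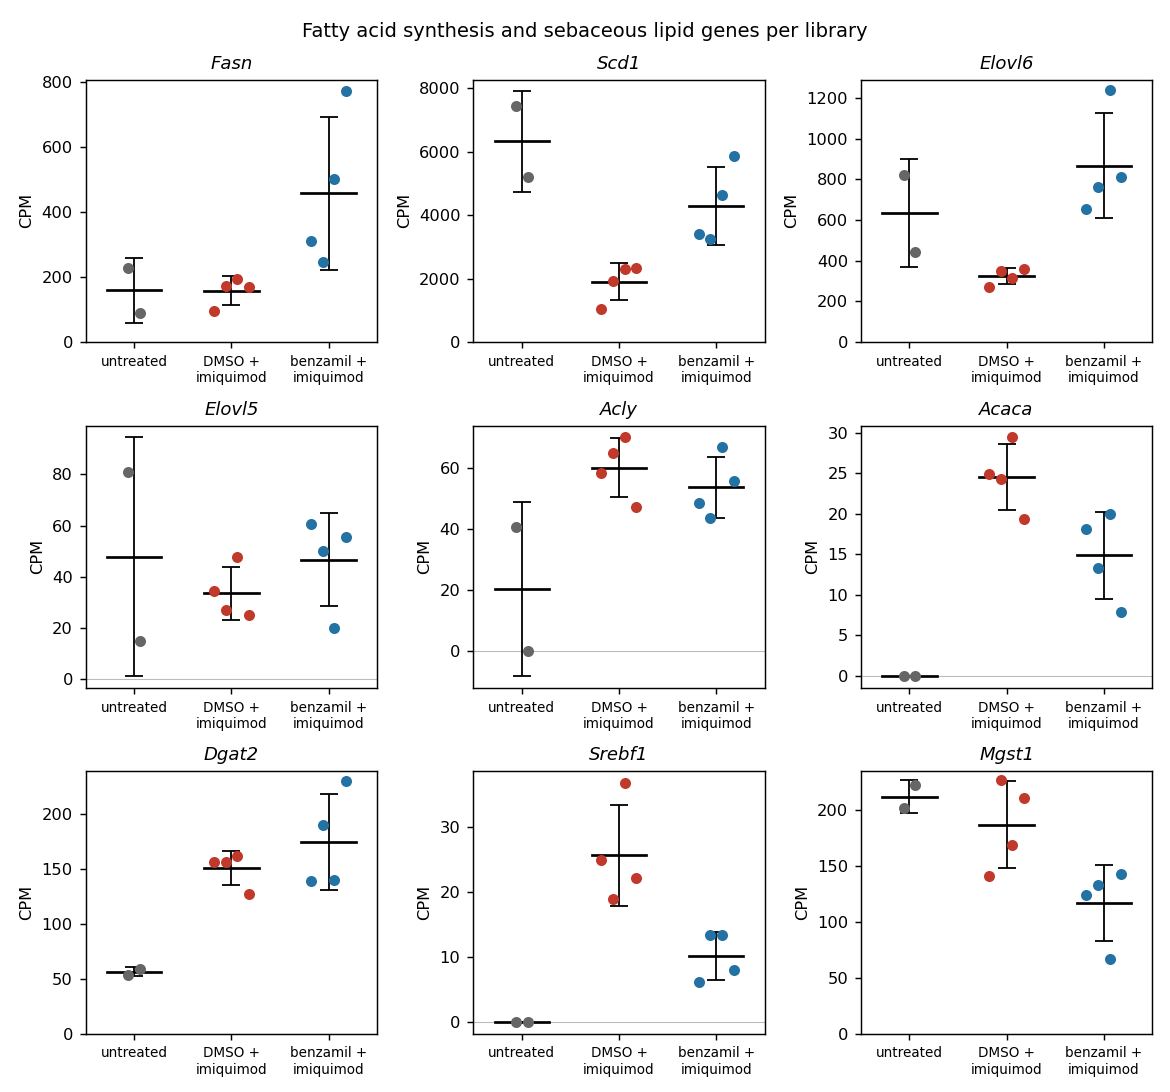
Level of each gene in CPM (y axis, linear, a separate scale per gene) in untreated (grey), DMSO + imiquimod (red) and benzamil + imiquimod (blue) ear skin. Points are libraries, horizontal bars are group means and error bars are SD (n = 2, 4 and 4). Fasn, Scd1 and Elovl6 were higher in every benzamil library than in every DMSO library, and Srebf1 was lower in each. The share of all genes separated in this way is not given here.

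In skin treated with imiquimod, Fasn, Elovl6 and Scd1 rose with benzamil, and no member fell by the test. That is 3 of the 7 tested members called, all higher, where 22% of all tested genes were called in either direction and 9.91% were called higher. The median log2 fold change was 0.56 over the 7 members and -0.0055 over all genes tested. Because these were bulk samples, a change in the number of cells of a type and a change in RNA per cell cannot be told apart.

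Fasn encodes fatty acid synthase, the multienzyme that makes palmitate, and lies on chromosome 11 from 120805846 to 120824547 (mm10, GENCODE M21, protein-coding). Its level was 309, 247, 500.3 and 770.3 CPM in benzamil libraries 1 to 4. In DMSO libraries 1 to 4 it was 94.5, 173, 195 and 169 CPM, and in the untreated libraries 229 and 89.0 CPM. Each benzamil library thus stood above each DMSO and untreated library, and the DMSO and untreated groups overlapped. How many of all genes separate by group like this is not given here, so separations are only described. The means were 457 ± 235 (SD, n = 4) with benzamil, 158 ± 43.8 (SD, n = 4) with DMSO and 159 ± 98.9 (SD, n = 2) in untreated skin. Benzamil over DMSO was 1.51 ± 0.29 on the log2 scale (edgeR adjusted p = 0.000678). The libraries with the highest Fasn levels, benzamil 4 and benzamil 3, were also the shallowest of the treated libraries. Without both of them the log2 fold change was 0.91 ± 0.28 (edgeR adjusted p = 0.0351), and Fasn stayed called.

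Elovl6, the elongase that extends palmitate to stearate, lies on chromosome 3 from 129532355 to 129638495. It was measured at 655, 765, 1241 and 810.05 CPM in the benzamil libraries. The DMSO libraries held 273, 348, 316 and 361 CPM, a narrow band wholly below the benzamil group. Untreated skin had 821 and 445 CPM, both above every DMSO library and within the benzamil range or below it. Benzamil over DMSO was 1.41 ± 0.22 (edgeR adjusted p = 7.00e-05), and 1.18 ± 0.22 (edgeR adjusted p = 0.00167) without benzamil libraries 3 and 4. Benzamil library 3, the highest for Elovl6, also had the largest ribosomal RNA share.

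Scd1, the stearoyl-CoA desaturase that puts the first double bond into stearate and palmitate, lies on chromosome 19 from 44394455 to 44407879. Its levels were 3399.9, 3258.7, 4629.7 and 5877 CPM with benzamil. DMSO libraries 1 to 4 held 1059.8, 1939, 2296 and 2346 CPM, with library 1 the lowest and none reaching the benzamil group. Untreated skin had 7457 and 5191 CPM, so the order of the group means was untreated, benzamil, DMSO. The benzamil and untreated ranges overlapped, and the DMSO range lay below both. Benzamil over DMSO was 1.17 ± 0.25 (edgeR adjusted p = 0.00182), and 0.85 ± 0.27 (edgeR adjusted p = 0.0455) without benzamil libraries 3 and 4. How reads shared by the related desaturase genes were counted is not given in the sources used here.

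The promoter windows of Fasn and Elovl6 are shown beside that of Acly, a member that was not called in any comparison, because these 3 windows show the range of motif content among the members. Each runs from 250 bases before to 50 bases after the annotated start (RefSeq, GRCm38.p6), 5′ to 3′ on the gene's strand. Capitals mark matches, on either strand, to CCAAT (the NF-Y box, ATTGG in reverse), GGGCGG (the GC box, CCGCCC in reverse), CACGTG (an E-box) or TCACNCCAC (a core of the sterol regulatory element). The Fasn window is chr11:120824498-120824797 on the minus strand, the Elovl6 window chr3:129532136-129532435 on the plus strand, and the Acly window chr11:100527951-100528250 on the minus strand.
Fasn: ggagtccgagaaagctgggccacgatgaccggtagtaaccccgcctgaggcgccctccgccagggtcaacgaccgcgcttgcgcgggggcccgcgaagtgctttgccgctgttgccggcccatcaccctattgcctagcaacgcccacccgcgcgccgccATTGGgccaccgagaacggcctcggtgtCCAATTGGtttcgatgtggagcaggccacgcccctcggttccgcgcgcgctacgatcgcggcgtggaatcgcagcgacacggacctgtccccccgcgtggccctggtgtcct
Elovl6: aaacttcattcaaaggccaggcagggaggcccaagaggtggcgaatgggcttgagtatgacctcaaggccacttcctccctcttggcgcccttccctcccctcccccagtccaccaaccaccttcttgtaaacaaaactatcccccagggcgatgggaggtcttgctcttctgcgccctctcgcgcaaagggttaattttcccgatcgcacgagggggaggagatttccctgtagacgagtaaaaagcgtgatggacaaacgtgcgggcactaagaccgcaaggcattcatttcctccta
Acly: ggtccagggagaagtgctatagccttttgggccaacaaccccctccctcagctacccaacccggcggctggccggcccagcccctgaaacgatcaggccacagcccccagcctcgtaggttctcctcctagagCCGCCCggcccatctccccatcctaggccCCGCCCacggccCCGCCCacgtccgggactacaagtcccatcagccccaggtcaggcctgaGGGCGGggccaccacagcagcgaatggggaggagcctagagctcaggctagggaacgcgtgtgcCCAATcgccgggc

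The Fasn window held 3 matches to CCAAT or its reverse, 2 of them sharing bases in CCAATTGG. No match to any of the 4 motifs was found in the Elovl6 window. The Acly window held 4 GC boxes and 1 CCAAT. In all, 7 of the 9 members had 10 windows, and no window for Scd1 or Dgat2 was in the table used here. None of the 10 held TCACNCCAC, which 1.24% of all 32851 windows of this length hold. The E-box CACGTG was in the Elovl5 window only, against 7.15% of all windows. CCAAT is in 37.4% and GGGCGG in 35.7% of all windows, so a single match to either is common. These matches describe letters and were not tested for binding.

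**Figure D2:**
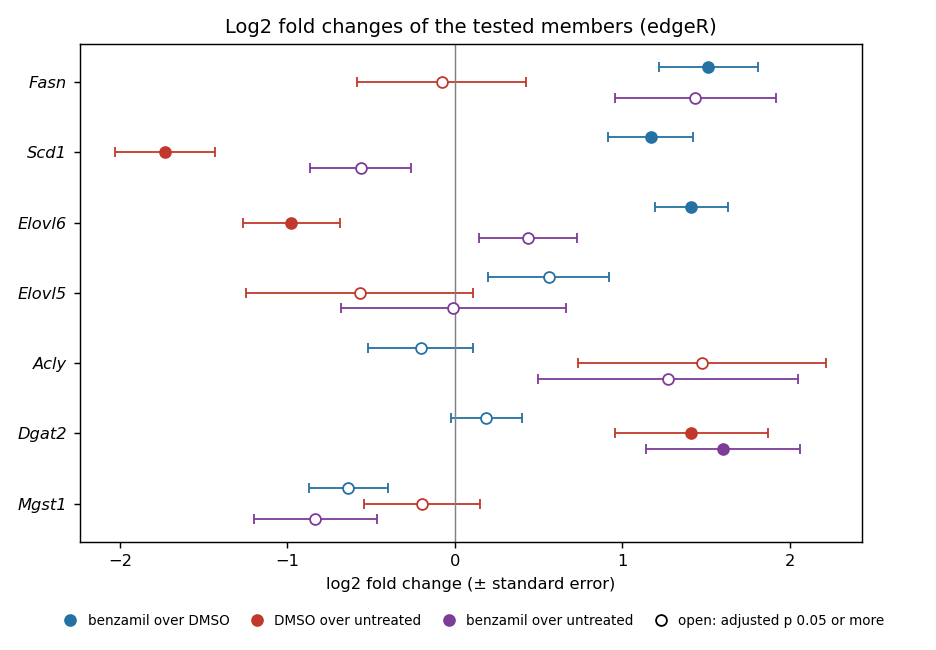
Log2 fold change (x axis) with its standard error (bars) for the 7 tested members in each comparison from edgeR's quasi-likelihood test. Filled points had an adjusted p under 0.05. Fasn, Scd1 and Elovl6 are filled to the right of 0 for benzamil over DMSO, Scd1 and Elovl6 to the left for DMSO over untreated, and Dgat2 to the right in both comparisons with untreated skin.

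For the first enzymes of the pathway no change was called. Acly, ATP citrate lyase (chromosome 11, 100476353 to 100528000), was at 48.5, 43.4, 66.7 and 55.6 CPM with benzamil and at 58.2, 64.8, 69.9 and 47.2 CPM with DMSO. These ranges overlapped widely, and the log2 fold change was -0.20 ± 0.31 (edgeR adjusted p = 0.681). Acaca, acetyl-CoA carboxylase 1 (chromosome 11, 84129672 to 84401651), had 48 reads over the DMSO libraries and 14 over the benzamil libraries. Its level was 24.9, 24.3, 29.4 and 19.4 CPM with DMSO and 18.2, 13.4, 20.01 and 7.94 CPM with benzamil. The highest benzamil library thus lay just above the lowest DMSO library. In an edgeR fit with no filter on low reads the log2 fold change of Acaca was -0.69 ± 0.48 (adjusted p = 0.386), so a difference was not detectable at this depth.

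Srebf1 (chromosome 11, 60199089 to 60222581), the gene of the transcription factor SREBP-1, was measured at 24.9, 18.9, 36.8 and 22.2 CPM in the DMSO libraries. In the benzamil libraries it was at 6.07, 13.4, 13.3 and 7.94 CPM, from 2, 4, 2 and 1 reads. Every benzamil library was below every DMSO library, in the opposite order to Fasn, Scd1 and Elovl6. That separation is only described, from at most 4 reads per benzamil library. The difference did not pass the test. In the edgeR fit with no filter the log2 fold change was -1.33 ± 0.54 (adjusted p = 0.0964), and in the authors' deposited table of benzamil against DMSO it was -0.83 (adjusted p = 0.185). Part of Srebf1's annotated exons, 109 of 5634 bases, overlaps exons of Rai1 on the other strand, and whether counting used strand is not given in the sources used here. Elovl6 shares 34 of 6431 exonic bases with an antisense gene, and for the other members no exonic overlap was found except a microRNA inside Srebf1.

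Elovl5 (chromosome 9, 77917364 to 77984519), an elongase of polyunsaturated fatty acids, gave 60.7, 50.1, 20.01 and 55.6 CPM with benzamil. With DMSO it gave 34.3, 27.0, 47.8 and 25.0 CPM. A low benzamil library 3, from 3 reads, put the groups into overlap, and the log2 fold change was 0.56 ± 0.36 (edgeR adjusted p = 0.279). Dgat2 (chromosome 7, 99153658 to 99182719), which adds the last acyl chain of triglyceride, was at 139.5, 190.3, 140.1 and 230.3 CPM with benzamil. The DMSO libraries held 157, 157, 162 and 128 CPM, inside the lower part of the range that the benzamil libraries spanned or just under it. The log2 fold change of Dgat2 was 0.19 ± 0.21 (edgeR adjusted p = 0.568).

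Mgst1 (chromosome 6, 138140316 to 138156755) encodes a membrane-bound glutathione transferase that acts on lipid peroxides. It was at 124, 134, 66.7 and 143 CPM with benzamil and at 141, 227, 169 and 211 CPM with DMSO. Benzamil library 4 and DMSO library 1 differed by less than a read in the former is worth, and the other benzamil libraries lay below all DMSO libraries. The log2 fold change of -0.64 ± 0.24 missed the threshold (edgeR adjusted p = 0.0535). Mgst1 was called lower without DMSO library 1 (-0.78, edgeR adjusted p = 0.0336) and under DESeq2's size factors (-0.69, edgeR adjusted p = 0.0367), so its call rests on these choices.

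In the authors' deposited table of benzamil against DMSO the adjusted p was 7.68e-08 for Elovl6, 0.000218 for Fasn and 0.000314 for Scd1, with log2 fold changes of 1.30, 1.29 and 1.05. The remaining 6 members had adjusted p-values from 0.105 for Mgst1 to 0.771 for Acly in that table. There 11.4% of the genes with an adjusted p were under 0.05, 4.96% higher and 6.43% lower. Limma on the deposited log2 values also called these 3 members and no other, where it called 9.32% of all genes, 3% higher and 6.32% lower.

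Imiquimod with DMSO was then set against untreated skin. Scd1 and Elovl6 fell and Dgat2 rose, which makes 3 of 7 tested members called, where 18.4% of all tested genes were called, 9.93% higher and 8.45% lower. This comparison uses the same 4 DMSO libraries as that with benzamil, so the fold changes of a gene in both are not independent. The median of all tested genes was 0.18 here, from 2 shallow untreated libraries.

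Scd1 fell by 1.73 ± 0.30 on the log2 scale (edgeR adjusted p = 0.000231), from 6324 ± 1602 CPM (SD, n = 2) to 1910.1 ± 595 CPM (SD, n = 4). It stayed called when any 1 library was left out. Elovl6 fell by 0.98 ± 0.29 (edgeR adjusted p = 0.0207), from 633 ± 266 CPM (SD, n = 2) to 325 ± 39.1 CPM (SD, n = 4). That call rests on untreated library 1, which at 821 CPM was well above untreated library 2, and without it the value was -0.37 (edgeR adjusted p = 0.535). The log2 fold change of Fasn was -0.08 ± 0.50 (edgeR adjusted p = 0.930), and its sign turned to 0.87 without untreated library 1.

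Dgat2 rose by 1.41 ± 0.46 (edgeR adjusted p = 0.0317). Its untreated levels were 53.8 and 59.3 CPM, from 4 reads each, below each DMSO library. The call was lost without DMSO library 1 (edgeR adjusted p = 0.0531), without untreated library 1 (edgeR adjusted p = 0.143) or without untreated library 2 (edgeR adjusted p = 0.0870), with log2 fold changes from 1.39 to 1.59 over these and the DESeq2 test, which also did not call it. Mgst1, at 202 and 222 CPM in untreated skin, differed by -0.20 ± 0.34 (edgeR adjusted p = 0.724). Elovl5, at 80.8 and 14.8 CPM in untreated skin, differed by -0.57 ± 0.68 (edgeR adjusted p = 0.587), and 1 of these libraries had a single read.

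Srebf1, Acaca and Acly were at or near 0 in untreated skin. Srebf1 and Acaca had 0 reads in both untreated libraries, where a count of 0 allows up to 40.4 and 44.5 CPM per library (3 reads) and 21.2 CPM over the group. Pooled DMSO levels were 1.18-fold that group limit for Srebf1 and 1.15-fold for Acaca, with no allowance for error in the DMSO counts. DMSO library 2 for Srebf1 (18.9 CPM) and DMSO library 4 for Acaca (19.4 CPM) lay under that limit. In the edgeR fit with no filter neither gene was called (adjusted p = 0.0781 for Srebf1 and 0.0779 for Acaca). Pooled benzamil levels of 9.94 CPM for Srebf1 and 15.5 CPM for Acaca were under the limit, so no fold is given. Acly had 3 reads in untreated library 1 and 0 in library 2, and its pooled level with DMSO was 2.79 times that in untreated skin, with an exact 95% interval from counting error alone of 0.931 to 13.7. In edgeR the log2 fold change of Acly was 1.47 ± 0.74 (adjusted p = 0.164). Limma on the deposited log2 values, with no filter, called Srebf1 (1.40, adjusted p = 0.00600) and Acaca (1.38, adjusted p = 0.00480) higher with DMSO, in a test that called 28.7% of all genes, 23.1% higher and 5.6% lower. The authors' deposited table of untreated against DMSO gave adjusted p-values of 0.146 for Srebf1 and 0.153 for Acaca. In that table Scd1 (1.57, adjusted p = 0.000162) and Elovl6 (0.85, adjusted p = 0.0484) were higher in untreated skin, and Dgat2 (-1.35, adjusted p = 0.0746) missed the threshold, where 9.84% of genes passed it, 4.65% higher and 5.18% lower with DMSO.

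Benzamil-treated against untreated skin called 1 of 7 tested members, Dgat2, where 4% of all tested genes were called 2.44% higher and 1.56% lower. Dgat2 rose by 1.60 ± 0.46 (edgeR adjusted p = 0.0458). That call was lost in 10 of the alternatives, among them leaving out benzamil library 2 or 4 or either untreated library, with log2 fold changes from 1.44 to 1.76 and adjusted p-values up to 0.159. Fasn was 1.43 ± 0.48 (edgeR adjusted p = 0.0880), with each benzamil library above both untreated libraries, and was called without benzamil library 2 (1.67, edgeR adjusted p = 0.0452). Scd1, at -0.56 ± 0.30 (edgeR adjusted p = 0.315), and Elovl6, at 0.44 ± 0.29 (edgeR adjusted p = 0.423), were not called, and their benzamil ranges overlapped the untreated ones. Mgst1 was -0.83 ± 0.37 (edgeR adjusted p = 0.209), with all benzamil libraries below both untreated libraries. The separations of Fasn and Mgst1 from only 2 untreated libraries are descriptive.

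**Figure D3:**
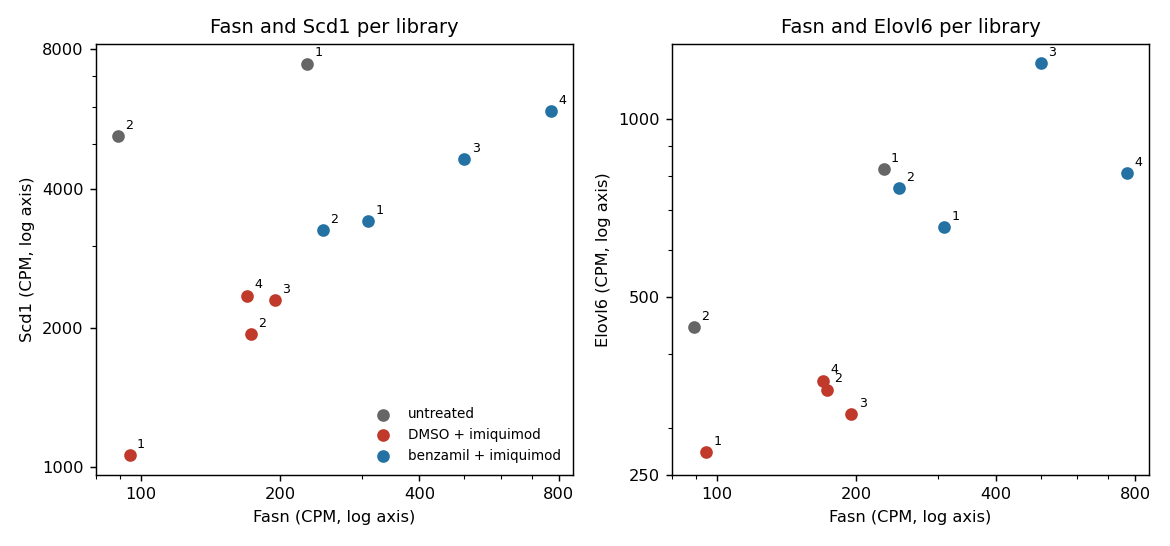
Level of Scd1 (left) and Elovl6 (right) against Fasn in CPM, both axes on a log scale, with a point per library numbered within its group (grey untreated, red DMSO + imiquimod, blue benzamil + imiquimod). The 8 treated libraries line up for Scd1 (r = 0.97 of log2 CPM), and both untreated libraries lie above that line.

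Fasn, Scd1 and Elovl6 varied together among the treated libraries. Over those 8 libraries Pearson's r of log2 CPM was 0.97 for Fasn and Scd1, 0.88 for Scd1 and Elovl6 and 0.86 for Fasn and Elovl6. The points share their library's depth and scaling and fall into 2 treatment groups, so these values are descriptive. With the untreated libraries added (n = 10), Fasn and Scd1 dropped to 0.52, since untreated skin had high Scd1 with a mean of Fasn like that with DMSO. Elovl6 and Mgst1 ran in opposite directions among the treated libraries (r = -0.78). Over the 21 pairs of tested members the median r was 0.06 in treated libraries and 0.13 in all 10.

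The 5 other genes whose log2 CPM followed the members' mean standardised profile most closely over the 10 libraries were Mc5r (r = 0.95), Usp46 (0.94), Rcan1 (0.94), Wif1 (0.93) and Tmem45a (0.93). That profile itself correlated at 0.89 with Fasn and at -0.33 with Mgst1. Mean levels of Mc5r were 32.2 CPM with benzamil, 9.71 with DMSO and 20.2 in untreated skin. The profile was lowest in untreated library 2 (-0.86), where Acly had 0 reads and Elovl5 had 1. A read there was worth 14.8 CPM, and 3 reads 40.4 and 44.5 CPM in the untreated libraries. The untreated mean of Mc5r is under those levels and that of Rcan1 (47.8 CPM) is close to them. These r values thus rest in part on few reads and are descriptive.

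Other genes of the pathway were mixed with benzamil against DMSO. Of 18 tested genes of fatty acid synthesis, desaturation and elongation outside the members, 3 rose and 1 fell, with a median of 0.11. Over all tested genes 22% were called, 9.91% higher and 12.1% lower, so these 18 were called about as often as genes in general. Elovl4, an elongase of very long chains needed for the skin barrier, rose by 1.17 ± 0.26 (edgeR adjusted p = 0.00211). Tecr, the reductase that completes each elongation cycle, rose by 0.97 ± 0.23 (edgeR adjusted p = 0.00447). Mid1ip1, a partner that promotes polymerisation of acetyl-CoA carboxylase, fell by 1.49 ± 0.29 (edgeR adjusted p = 0.000753). Hacd3, a dehydratase of the same elongation cycle, rose by 0.68 but lost its call in 11 alternatives (0.41 to 0.69), among them leaving out DMSO library 2, 3 or 4 or benzamil library 3 or 4. Elovl4 lost its call only without benzamil libraries 3 and 4 (0.80, edgeR adjusted p = 0.0607).

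Among 18 tested genes of glycerolipid, wax ester and lipid droplet metabolism, 6 rose and 1 fell (median 0.62). These counts, and those of the regulators below, stand beside 9.91% of all tested genes called higher and 12.1% lower. Mgll, a monoacylglycerol lipase, rose by 1.42 ± 0.22 (edgeR adjusted p = 6.24e-05), Agpat5, an acyltransferase of phosphatidic acid synthesis, by 1.26 ± 0.25 (edgeR adjusted p = 0.000868), and Awat1, a wax synthase of sebaceous glands, by 1.26 ± 0.20 (edgeR adjusted p = 7.90e-05). Agpat4 rose by 1.44 and was not called without DMSO library 1 (1.04, edgeR adjusted p = 0.0588). Far1, a fatty acyl-CoA reductase, fell by 1.10 and lost its call in 9 alternatives, among them leaving out any 1 DMSO library or benzamil library 1, 3 or 4 (-1.25 to -0.54). Of 9 tested lipogenic regulators Usf2 (0.80) and Rxra (0.73) rose and Mlx fell by 1.14. Each lost its call without at least 1 library. For Usf2 that was benzamil library 3, for Rxra DMSO library 1 or 2 or benzamil library 1, 3 or 4, and for Mlx DMSO library 1 or benzamil library 1 or 2, where values ran from 0.53 to 0.72, from 0.45 to 0.79 and from -1.14 to -0.52 over all alternatives that ended each call.

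Lists of genes that carry or oxidise fatty acids are read against the 22% of all tested genes called, 9.91% higher and 12.1% lower. Of 8 tested uptake and binding genes 2 rose, Slc27a4, a fatty acid transporter with acyl-CoA synthetase activity (1.37 ± 0.24, edgeR adjusted p = 0.000242), and Dbi, an acyl-CoA binding protein (0.65 ± 0.18, edgeR adjusted p = 0.0119, and 0.39 with adjusted p = 0.169 under scaling by total counts). Of 17 tested fatty acid oxidation genes 3 rose, led by Decr1, a mitochondrial dienoyl-CoA reductase (1.66 ± 0.36, edgeR adjusted p = 0.00198), and 2 fell, with a median of 0.20. Acads (1.66) and Acaa1a (1.42), enzymes of the same spiral, rose, and Eci2 and Hadh fell by 1.11 and 0.85. Calls were lost without DMSO library 1 or 2 or benzamil library 2 for Acads (1.35 to 1.71), without DMSO library 2 or benzamil library 1 for Eci2 (-1.07 to -0.98), without benzamil libraries 3 and 4 for Acaa1a (1.26, edgeR adjusted p = 0.0833), and in 8 alternatives for Hadh (-0.86 to -0.53), among them leaving out DMSO library 1, 2 or 4 or benzamil library 1, 3 or 4. A list of other MAPEG genes (the membrane protein family of Mgst1) and of glutathione transferases of any family held 5 tested genes. None rose and 2 fell, Gsta4 by 1.95 ± 0.37 (edgeR adjusted p = 0.000569) and Ptges by 1.72 ± 0.42 (edgeR adjusted p = 0.00476). Ptges, the prostaglandin E synthase, was not called without DMSO library 1 (-1.37, edgeR adjusted p = 0.0566).

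**Figure D4:**
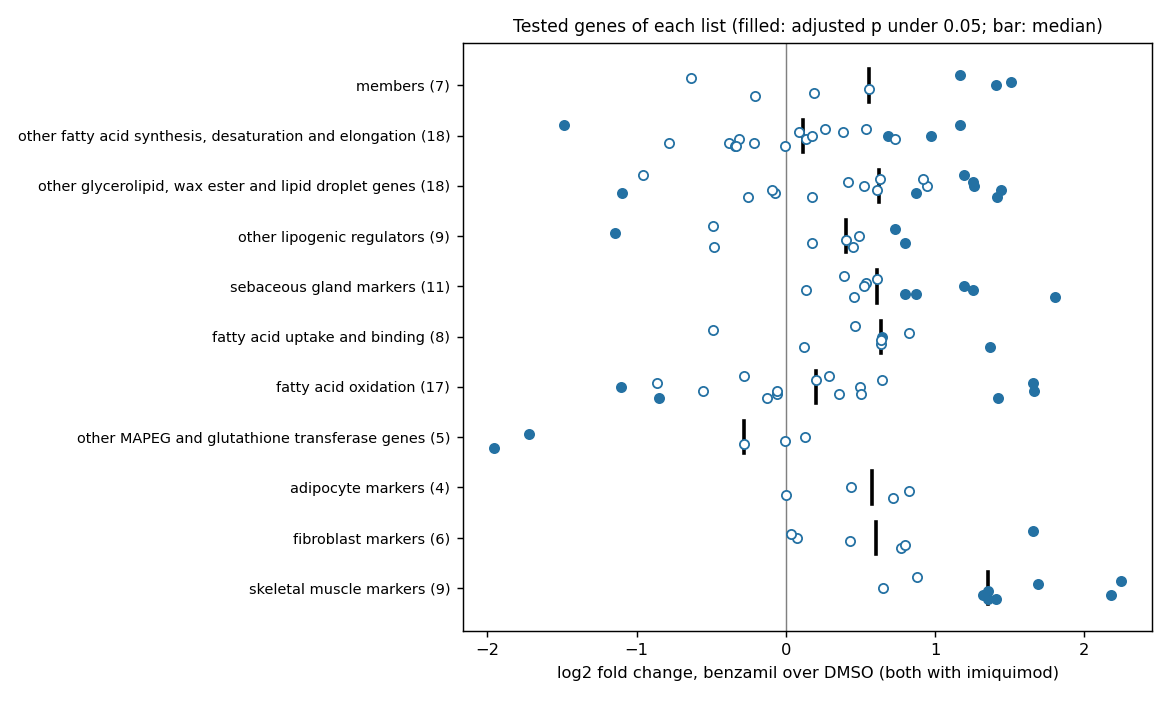
Log2 fold change of benzamil over DMSO (x axis) for each tested gene of the members and of 10 other lists, with the number tested in brackets. The keratinocyte markers (4 of 12 called higher, 1 lower) and neutrophil markers (3 of 3 called lower) are not plotted. Over all tested genes 9.91% were called higher and 12.1% lower. Filled points had an edgeR adjusted p under 0.05 and the vertical bar is the list's median. The 11 sebaceous gland markers plotted lie to the right of 0, with 5 filled, and the lists of oxidation and of other synthesis genes span 0.

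Of the 11 tested sebaceous gland markers reported here, 5 rose with benzamil over DMSO and 6 were not called, where 9.91% of all tested genes were called higher. Each of the 11 had a log2 fold change above 0, with a median of 0.61. The 5 became 2 without DMSO library 1, without benzamil library 4 or without benzamil libraries 3 and 4, 3 under DESeq2 and limma, and 1 under scaling by total counts. Apoc1 rose by 0.80 ± 0.20 (edgeR adjusted p = 0.00558), and Awat1 as above. The counts left without benzamil library 4, without benzamil libraries 3 and 4 and under total counts do not include Apoc1. Its values under the alternatives are not given here. Mc5r, the melanocortin receptor of sebaceous glands, rose by 1.80 ± 0.58 (edgeR adjusted p = 0.0278), a call lost without DMSO library 1 or benzamil library 3 (1.26 to 1.75 over the alternatives that ended it). Cidea and Plin2, which coat lipid droplets, rose by 1.20 and 0.87 and lost their calls without DMSO library 1 or 2 or benzamil library 4, and Cidea also without benzamil library 2 (0.70 to 1.17 and 0.54 to 0.85). The summed level of the 15 sebaceous markers in both tables was 2117 to 3153 CPM with benzamil, 1377 to 1871 CPM with DMSO and 1587 to 1642 CPM in untreated skin, so the benzamil group lay above both. None of the 15 was at 0 in a whole group, and Krt7, Awat2 and Muc1 were not in both tables. The part of sebaceous cells in the rise of Fasn, Elovl6 and Scd1 was not tested.

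Summed keratinocyte markers were at 57332 to 73603 CPM with benzamil, 36256 to 50805 CPM with DMSO and 26744 to 29618 CPM in untreated skin. Of the 12, 4 rose with benzamil, Flg2, Krt2, Krt15 and Lor, and 1 fell, Dsg3, and Lor was not called without benzamil library 3 or under total counts (0.74 to 0.90). Beside these counts and those of the other cell types below, 9.91% of all tested genes were called higher and 12.1% lower. Adipocyte markers were thin, with 5 of 13 in both tables and Adipoq, Lep and Plin1 not among them, and Lipe was at 0 in untreated skin. Their sum was 167 to 358 CPM with benzamil, 208 to 258 CPM with DMSO and 297 to 363 CPM in untreated skin, and 0 of 4 tested were called for benzamil over DMSO. Of 8 neutrophil markers 4 were in both tables, and Csf3r, Ly6g, Mpo and Elane were not. The 4 in both tables were S100a8, S100a9, Cxcr2 and Retnlg. Their sum was 11029 to 18324 CPM with DMSO, 213 to 4249 CPM with benzamil and 44.5 to 215 CPM in untreated skin. How much each gene added to the sum is not given here, and which cells made S100a8 and S100a9 was not tested. Cxcr2 and Retnlg were at 0 in untreated skin, as Retnlg was with benzamil, and Retnlg had 23 reads over the DMSO libraries. The number of neutrophils was not measured. Skeletal muscle markers were at 178 to 1019 CPM with DMSO, 627 to 1459 CPM with benzamil and 2625 to 2732 CPM in untreated skin, and 7 of 9 tested rose with benzamil. That count was 2 without DMSO library 1 or benzamil library 1, 4 without benzamil library 2, and 1 under DESeq2 and under limma. Fibroblast markers were at 542 to 1067 CPM with DMSO, 700 to 2279 CPM with benzamil and 8261 to 19005 CPM in untreated skin. Their part in the differences of the members was not tested.

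With DMSO against untreated skin, 3 of the 18 other synthesis genes rose and none fell (median 0.82, all genes 0.18). Counts for this comparison are read against 18.4% of all tested genes called, 9.93% higher and 8.45% lower. Elovl7, an elongase, rose by 1.43 ± 0.32 (edgeR adjusted p = 0.00283), Mid1ip1 by 2.35 ± 0.62 (edgeR adjusted p = 0.0103) and Scd2, a desaturase related to Scd1, by 1.52 ± 0.50 (edgeR adjusted p = 0.0328). Without untreated library 1 neither Mid1ip1 (1.79, edgeR adjusted p = 0.128) nor Scd2 was called, and Scd2 was also not called without DMSO library 2 or 4 (0.84 to 1.47). Of 18 glycerolipid and droplet genes 1 rose, Abhd5, a lipase activator (1.93 ± 0.55, edgeR adjusted p = 0.0154). Its call was lost without untreated library 2 (1.10). With 1 library left out its log2 fold change reached 8.95, so the size of its rise is not settled. No lipogenic regulator of 9 was called. Of 8 uptake and binding genes Fabp5, the epidermal fatty acid binding protein, rose by 2.74 ± 0.37 (edgeR adjusted p = 1.43e-05), while Fabp4 and Slc27a4 fell by 2.66 and 1.26, both not called without untreated library 1 (-2.07 and -0.88). Of 17 oxidation genes Hadh rose by 2.75 (up to 8.00 with 1 library left out, so its size is not settled), and Acox3 (-2.68) and Decr1 (-1.78) fell. Without untreated library 1 none of these was called, Acox3 was also not called without untreated library 2 and Decr1 without DMSO library 1, 3 or 4, with values of 1.79 to 2.76, -2.66 to -2.51 and -1.82 to -0.81 over the alternatives that ended each call. Of the 5 MAPEG and glutathione transferase genes Gsta4 was called higher (edgeR adjusted p = 0.00266), with 0 reads in untreated skin. Of 4 adipocyte markers Fabp4 and Car3 (-1.87) fell, and Car3 was not called without DMSO library 1 or untreated library 1 (-1.82 to -0.75). Of 11 sebaceous markers Krt79 rose by 1.13 and Acsbg1 fell by 1.30. These calls were lost without untreated library 1 for Krt79 (1.15) and without untreated library 2 for Acsbg1 (-0.80). Among the other cell type markers, 5 of 6 tested fibroblast genes (median -3.83) and 7 of 9 skeletal muscle genes (median -2.64) fell. Of 12 keratinocyte markers 5 rose and 2 fell, and all 3 tested neutrophil markers rose. The part of these cell types in the differences of the members was not tested.

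For benzamil over untreated skin, where 4% of all tested genes were called, calls in these lists were as follows. Elovl3 (2.09) and Elovl4 (1.31) rose among the 18 synthesis genes, Awat1 (1.41) among the 18 droplet and wax ester genes, and Fabp5 by 2.25 ± 0.38 (edgeR adjusted p = 0.000660) among the 8 binding genes. Of the 11 sebaceous markers 3 rose, Elovl3, Awat1 and Krt79, the last by 1.52 ± 0.32 (edgeR adjusted p = 0.00709). Apart from Fabp5 each of these lost its call without at least 1 untreated library, and Elovl3 and Elovl4 also without benzamil library 3 or 4 and Elovl3 without benzamil library 2. Over the alternatives that ended the calls, values were 1.70 to 2.82 for Elovl3, 0.92 to 1.23 for Elovl4, 1.24 to 1.65 for Awat1 and 1.54 for Krt79. Among the other cell type markers 4 of 6 tested fibroblast genes fell (median -2.88), where 1.56% of all tested genes were called lower. Of 12 keratinocyte markers 4 rose and 1 fell, where 2.44% were called higher. Of 3 neutrophil markers S100a8 and S100a9 rose, and neither was called in the fit of only the groups compared. Of 9 skeletal muscle markers 0 were called.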

How the data were processed

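Libraries were made from 500 ng of ear skin RNA each with a 3' mRNA kit that adds UMIs and were read with 150 cycles, per the labels' protocols. Per the submitters' processing notes the authors used STAR, featureCounts, DESeq2 and the mm10 genome, with versions not given in the sources used here, nor whether reads sharing a UMI were collapsed. The authors deposited 2 tables of variance-stabilised log2 values, each normalized on its own. They also deposited 2 result tables that hold, per the file headers, a mean signal over libraries, log2 fold changes and their standard errors, a Wald score, and raw and adjusted p-values. A further deposited table of counts lists 61533 human and 0 mouse identifiers and entered no comparison.

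The planned edgeR test needs counts, but the mouse values were log2 values. They were inverted to reads, which came out whole within 0.001 for 100% of values in each library, and the DMSO reads were equal in both tables for 39116 of 39116 values. The 9779 genes in both tables were joined (874 and 41 left out). A single edgeR 4.0.16 fit in R 4.3.3 took in all 10 libraries, using group means without covariates, TMM and filterByExpr (10 reads at typical depth, 15 in total), which kept 5245 genes. The fit was tested on simulated data. CPM uses TMM-scaled library sizes, and correlations use log2 CPM with a prior count of 2. The standard error is the absolute log2 fold change over the square root of F. Alternatives used DESeq2 1.42.0 and limma 3.58.1.

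The members, lists and tests were chosen with earlier results of these data known. Of each other list, at most the 4 called genes with the largest change per direction and comparison are named, and for likeness the 5 genes with the highest r. Apoc1 is named in addition. A listed sebaceous marker is not reported here and is left out of that list's counts, which therefore do not describe the whole list. Intervals and limits from a count of 0 (3 reads) cover counting error only.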

Additional observations from a re-analysis of the deposited data

Results flagged for a closer look

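Dgat2 in DMSO library 4, at 128 CPM, stood apart from the other DMSO libraries, with a gap to the nearest of them of 0.848 of the group's range. It was the only such sample among the 18 sets of 4 libraries examined, and chance alone gives about 1 in 20.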

How the results depend on the processing

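Fasn, Scd1 and Elovl6 were called higher with benzamil than with DMSO under all 18 alternatives run for that comparison, with log2 fold changes of 0.91 to 1.75, 0.85 to 1.29 and 1.11 to 1.54. The least depth sets the limits: 1 read in untreated library 2 was worth 14.8 CPM, and Acaca and Srebf1 were tested only without a filter. Replacing TMM by total counts shifted the median of all genes by -0.26 for benzamil over DMSO and -0.17 for benzamil over untreated. The alternative without benzamil libraries 3 and 4 was chosen after seeing the data. The cause of a change between settings was not tested.

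For benzamil over DMSO, 1 member (Mgst1) instead of 0 was called lower under DESeq2's size factors, under total counts (-0.89) and under the stricter filter of 30 reads (-0.65). Total counts called 248 genes higher and 1009 lower instead of 520 and 635, and put Dgat2 at -0.067. The stricter filter called 331 and 376, limma on the deposited log2 values (whole tables, no filter) 320 higher, and the fit without benzamil libraries 3 and 4 called 284 higher and 300 lower. Leaving out 1 library at a time gave 291 to 466 genes higher and 356 to 614 lower, the lowest without DMSO library 1, with 3 members higher throughout and 0 to 1 lower.

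For DMSO over untreated, members called higher numbered 0 under DESeq2 (329 genes higher) and 3 under limma (2271 genes higher instead of 521), and members called lower 1 under limma and 1 with no filter, where Elovl6 was lost (-0.73 and -0.75). The stricter filter called 313 genes higher. Fasn turned to 0.020 under total counts, 0.15 with no filter and 0.13 under limma, and Mgst1 to 0.031 with no filter. Leaving out 1 library gave 0 to 1 members higher, 1 to 2 lower, 225 to 532 genes higher and 208 to 429 lower, the lowest without untreated library 1. Signs turned for Fasn (0.15 without DMSO library 1 and a range of -0.48 to 0.87, the latter without untreated library 1) and Elovl5 (-1.17 to 1.23, the latter without untreated library 1). Acly had 0 reads left without untreated library 1, so its fitted values there are no estimate of size.

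For benzamil over untreated, 0 members were called higher under DESeq2's size factors, total counts, the DESeq2 test, the fit of only the groups compared and the fit without benzamil libraries 3 and 4, and 2 (Dgat2 and Fasn) with no filter. Genes called higher numbered 63 under total counts, 200 with no filter, 81 under DESeq2 and 77 in the fit of only the groups compared, instead of 128. Genes called lower numbered 125 under DESeq2 and 43 without benzamil libraries 3 and 4, instead of 82. Elovl5 turned to 0.0085 with ribosomal RNA genes left out, 0.18 with no filter, 0.19 without benzamil libraries 3 and 4, 0.18 without benzamil library 3 and 1.79 without untreated library 1, in a range from -0.63 when single libraries were left out. Leaving out 1 library gave 0 to 1 members higher, 63 to 111 genes higher and 36 to 71 lower. Limma was not run here, since the tables were normalized separately.

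Whether shared replicate numbers pair the DMSO and benzamil libraries is not stated in the sources used here. Deviations of same-numbered libraries correlated at 0.07, 0.00069, 0.04 and 0.07, and those of libraries with different numbers at -0.13 to 0.17. Values this small and scattered cannot decide whether the libraries were paired. With the replicate number as a block, benzamil over DMSO gave 465 genes higher and 594 lower, with 3 members higher, DMSO over untreated 545 and 418, and benzamil over untreated 84 higher and 63 lower with 0 members higher and Elovl5 at 0.051.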
